A study of Mus musculus with 40 samples.

Results

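The genes described here are those of the proteins of the cytosolic ribosome, 86 of the 35976 gene symbols in the deposited count table. They were chosen by symbol alone (Rpl and Rps followed by a number, with the paralogue endings, Rplp0, Rplp1, Rplp2 and Rpsa, and without symbols marked as pseudogenes). Large-subunit proteins account for 53 of them and small-subunit proteins for 33, and 8 are listed paralogues of another member. The annotation holds 84 as protein coding and 2, Rps4l and Rpl32l, as pseudogenes. RNA came from mouse bone marrow. Long-term haematopoietic stem cells (LT-HSC), a sort of common myeloid with granulocyte-macrophage progenitors (CMP/GMP), and progenitors of megakaryocytes and red cells (MEP) were compared between Wild Type (WT) and DNMT3A knockout (KO), with 4 libraries a group except for 3 of MEP WT. Cells carrying c-kit, a mixed progenitor fraction, were also profiled from STING knockout and DNMT3A/STING double knockout (DKO) mice. They gave 3 libraries of DKO and 2 each of WT, Dnmt3a KO and Sting KO. The study asked which intrinsic factors act in cells with mutated Dnmt3a, a DNA methyltransferase, and its title concerns Sting, the adaptor of cytosolic DNA sensing. The Dnmt3a knockout joined loxP-flanked alleles with Mx1-Cre, whose promoter is active in many cell types after interferon. The sources used here do not give the induction of Cre, its presence in WT or the age of the mice. No label ties a library to an animal, so p-values measure only the spread between libraries, which may be technical.

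Reads assigned to genes ranged from 3.44 to 47.7 M a library. 5 libraries stood apart, with a median correlation under 0.7 with the other libraries of their population: LT-HSC WT 1, LT-HSC KO 2 and MEP KO 2, 3 and 4. They also held the fewest genes with at least 10 reads, 9121 to 11804 against 12322 or more in the other libraries, and the main counts of calls that rest on them are given with and without them. Among c-kit+ libraries, the normalised level of Dnmt3a (CPM, reads as a share of the library total scaled with TMM factors) was 82.3 and 90.6 in WT, 47.9 and 49.5 in KO, and 43.0 to 51.6 in DKO. That of Tmem173, the gene of Sting, was 55.1 and 67.0 in WT and 10.1 to 11.9 in the 5 libraries labelled Sting KO or DKO. In sorted cells the libraries labelled LT-HSC KO 3 (Dnmt3a 104 CPM) and MEP KO 2 (43.7 CPM) lay within the range of WT, and a count over the whole gene also takes in reads outside a deleted part. The summed level of 9 stem cell markers was 856 to 1685 CPM in LT-HSC WT against 42.5 to 73.0 in MEP WT, and that of 8 megakaryocyte-erythroid markers was 8712 to 11306 CPM in MEP WT but 3643 to 7874 in MEP KO. No replicates agreed within sampling noise, although MEP KO 3 and 4 correlated at 0.989 and CMP/GMP WT 2 and 4 at 0.981.

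A ribosome joins a small subunit, which reads the message, with a large subunit, which forms the peptide bond, and each holds a single copy of most of its proteins beside ribosomal RNA. Messages of ribosomal proteins are among the most abundant in growing cells. They carry a run of pyrimidines at the very start (a 5′ terminal oligopyrimidine tract) through which the TOR kinase sets their translation, so their RNA level and their protein output can part. In blood formation these genes are known from Diamond-Blackfan anaemia, in which loss of a single copy of one of them impairs red cell production.

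Start sites were searched for such runs, and the 8 printed here belong to genes on which later results turn. Each is the window of 15 bases on either side of a start annotated by RefSeq (GRCm38.p6, the mm10 build), on the transcribed strand, and capitals mark a C followed by at least 4 bases that are each C or T, starting within 5 bases of the start.
Rpl38, chr11:114668565-114668594, plus strand: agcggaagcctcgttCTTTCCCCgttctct
Rpl13a, chr7:45128731-45128760, minus strand: gaaaccctgcgacaagaCCTCCTCCTTTCC
Rps2, chr17:24720048-24720077, plus strand: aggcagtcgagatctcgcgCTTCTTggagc
Rps27, chr3:90213634-90213663, minus strand: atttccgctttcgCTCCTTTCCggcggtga
Rps27l, chr9:66946071-66946100, plus strand: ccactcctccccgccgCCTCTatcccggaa
Rpl22l1, chr3:28805493-28805522, plus strand: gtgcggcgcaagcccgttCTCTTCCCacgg
Rplp0, chr5:115559452-115559481, plus strand: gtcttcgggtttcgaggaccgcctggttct
Rps3a1, chr3:86142654-86142683, minus strand: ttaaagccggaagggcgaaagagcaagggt
The first 6 windows hold such a run and the last 2 do not. Rps27l has a further annotated start whose window has none. Of the 65 members with a window, 30 (46.2%) had a run, of 5 to 19 bases with a median of 8.5, against 21.2% of the 27025 genes with a window. Among the listed paralogues it was 2 of 7. Only the transcribed strand was searched, a match is a description of these letters and not a test of translation, and 21 members had no entry.

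Many members share sequence with processed copies elsewhere in the genome. At least 50% of the 50-base words of the transcript also occur in another gene's transcript for 54 of the 86, and the median share is 58.7%. The sources used here do not give how reads that map to several places were counted, so the level of a member with near-identical copies is uncertain. Whether strand was used is not stated either.

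Members took a larger share of gene reads in the sorted populations than in c-kit+ cells, and the largest in MEP. In c-kit+ cells the share was 4.51% to 4.95% over all 9 libraries. WT LT-HSC libraries held 8.97% ± 2.24 (SD, n = 4), of which LT-HSC WT 1 held 12.2% and the other 3 held 7.28% to 8.85%. CMP/GMP WT held 7.81% ± 1.01 (SD, n = 4) and MEP WT 10.6% ± 0.288 (SD, n = 3). The MEP WT libraries, at 10.3% to 10.9%, lay above all 4 CMP/GMP WT libraries, whose highest was 8.69%, and above 3 of 4 LT-HSC WT libraries. In Dnmt3a KO the share was 8.96% ± 1.54 in LT-HSC, 8.98% ± 0.709 in CMP/GMP and 14.2% ± 2.79 in MEP (SD, n = 4 each). MEP KO ran over 11.3%, 12.4%, 16.0% and 17.1%, and its lowest was MEP KO 1, the only MEP KO library that did not stand apart. MEP KO 1 alone was 1.07 times the WT mean. A share is relative to all other genes of a library, and in bulk samples more cells of a type and more RNA per cell cannot be told apart.

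**Figure D1:**
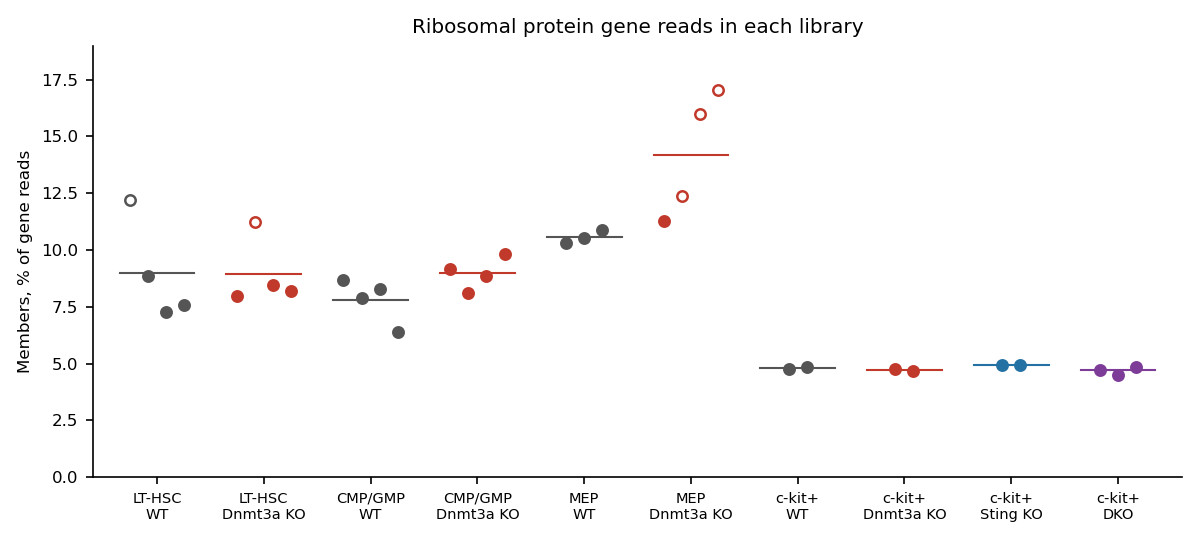
Percent of gene reads that fall on the 86 ribosomal protein genes (vertical axis) in each library, by population and genotype. Open circles are the 5 libraries that stand apart and short lines are group means; c-kit+ libraries sit between 4.51% and 4.95%, and the MEP KO libraries run from 11.3% to 17.1%.

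Per kilobase of transcript, 3 members led every sorted WT population. They were Rpl41, the shortest protein of the set, Rpl13 of the large subunit and Rps18 of the small subunit, at 4439, 4412 and 3627 CPM per kb in LT-HSC WT and at 5728, 5855 and 4772 in MEP WT. In c-kit+ WT the leading members were Rps24 (2131 CPM per kb), Rps2 (1831) and Rpl41 (1549). At the other end, Rpl10l, the paralogue of Rpl10 known from testis, had 0 reads in all 32 libraries, and Rpl3l, known from muscle, and Rpl39l, known from testis, never passed 5 CPM. 81 of the 86 were above 50 CPM in every library. Differences between neighbours in these orders were not tested, and the SD of Rpl41 in LT-HSC WT was 2723 CPM per kb, more than the distance from Rpl41 to Rps18.

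In WT, most members leaned lower in LT-HSC than in MEP, but few passed the test. 8 of the 83 members tested (9.64%) were called lower and none higher (edgeR quasi-likelihood test, adjusted p under 0.05 over all genes). Of all 14663 genes 13.2% were called in either direction, 7.17% higher and 6.02% lower, so the members called did not exceed the share of all genes called. The median log2 difference, LT-HSC minus MEP, was −0.35 over the members and 0.17 over all genes, and 70 of the 83 were negative. Rps2, which lies at the entry of the messenger channel, had 1828 to 2395 CPM in the 4 LT-HSC libraries and 3328, 4207 and 5329 in MEP. Its log2 difference was −1.01 (SE 0.21, adjusted p = 0.00787), and the groups did not overlap. Rplp0, the base of the stalk on which elongation factors dock, had 2502 to 3709 CPM in LT-HSC and 4712 to 6597 in MEP, a log2 difference of −0.99 (SE 0.20, adjusted p = 0.00787). Among the others, Rpl19, part of a bridge between the subunits, differed by −0.79 (adjusted p = 0.0140), Rpl4, which lines the exit tunnel of the new protein, by −0.78 (0.0230) and Rpl35, at the mouth of that tunnel, by −0.73 (0.0382) on the log2 scale. Rpl10, a late-joining large-subunit protein, and Rpl15 had −0.72 each. For each of the 8 the highest LT-HSC library lay below the lowest MEP library. They were picked by the test in these same libraries, so this separation adds nothing to it. The share of all genes so separated was not counted.

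Members of 1 structure were compared, with differences between them not tested. Within the stalk, Rplp0 was lower in LT-HSC, while Rplp1 and Rplp2, the 2 small acidic proteins that sit on it, had log2 differences of −0.05 (adjusted p = 0.950) and −0.16 (0.849). LT-HSC WT 1 held 3279 CPM of Rplp1 against 1073 to 1406 in the other 3, and 1722 CPM of Rplp2 against 419 to 639. Without that library the log2 differences were −0.91 for Rplp0 (adjusted p = 0.00574), −0.54 for Rplp1 (0.0926) and −0.82 for Rplp2 (0.0298). Rpl5 and Rpl11, which carry 5S ribosomal RNA and bind the p53 regulator Mdm2 when ribosome assembly stalls, had −0.65 (adjusted p = 0.0906) and −0.29 (0.374), and without LT-HSC WT 1 −0.86 (0.0103) and −0.41 (0.108). By subunit, 6 of 50 large-subunit and 2 of 33 small-subunit members were called, with medians of −0.29 and −0.35. Of the 19 members on a list of Diamond-Blackfan genes, 2 were called lower. Over all genes 6.02% were called lower. The member counts were 23 of 50, 16 of 33 and 8 of 19 without LT-HSC WT 1, where 19.1% of all genes were called in either direction.

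Without LT-HSC WT 1, the count of members lower in LT-HSC than in MEP was 39 of 83 (19.1% of all genes called in either direction), with a median of −0.61. It held all 8 of the first count, and Rps12 (−1.26, adjusted p = 0.0118), Rplp2 (−0.82, 0.0298) and Rps27l (−1.28, 0.00409) were then among the members called. Leaving out MEP WT 3 gave 1 call, and MEP WT 1 or 4 gave 3, LT-HSC WT 4 gave 2 and LT-HSC WT 3 or CMP/GMP WT 4 gave 5.

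CMP/GMP was compared with both. Against MEP, 81 of 83 members were lower in CMP/GMP WT, with a median of −0.42 against 0.06 over all genes, but edgeR called none (3.47% of all genes called, 2.28% higher and 1.19% lower), with 21 at an unadjusted p under 0.05 and 6 called by DESeq2. Of all genes, 16.4% had such an unadjusted p and DESeq2 called 9.79%. Without LT-HSC WT 1, which shares the fit, 7 members were called lower (7.55% of all genes called in either direction). Rps2 was then one of them, at −0.70 (adjusted p = 0.0430). Between LT-HSC and CMP/GMP in WT, 52 of 83 were positive and edgeR called none (8.74% of all genes called, 4.23% higher and 4.51% lower), with 8 at an unadjusted p under 0.05 and 1 called by DESeq2. Of all genes, 26.2% had such an unadjusted p and DESeq2 called 17.3%, so the members lay below both shares. The direction of the members turned with 1 library: the median was 0.11 with LT-HSC WT 1 and −0.21 without it, when 18 of 83 were positive and 3 were called lower (14.6% of all genes called in either direction).

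The KO libraries gave the same comparisons in other libraries. In Dnmt3a KO, 38 of 83 members were lower in LT-HSC than in MEP and none higher (9.89% of all genes called, 5.4% higher and 4.49% lower), with a median of −1.10. Leaving out the libraries that stand apart leaves MEP KO 1 alone in its group and so assumes that it varies like the other groups. The median was then −0.66. Rps2 was called in WT, in KO (−1.27, adjusted p = 0.00673) and in KO without those libraries (−1.09, 0.0159). Rplp0 was −0.52 in KO (adjusted p = 0.380) and −1.15 without them (0.0259). 3 of the 8 WT calls (37.5%) were also KO calls, Rpl10, Rpl35 and Rps2, which is 7.89% of the KO calls. Of all 83 members, 45.8% were called in KO and 9.64% in WT, so the overlap lay below both shares. Against the 39 called without LT-HSC WT 1 (47% of members), 25 genes were shared, 64.1% of the 39 and 65.8% of the 38 KO calls. Whether that overlap exceeds the shares of members called was not tested.

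Other members led the KO calls. Rps12 of the small subunit had 229, 249, 253 and 946 CPM in LT-HSC KO, the highest of them in the library that stands apart, and 478, 1307, 2504 and 2730 in MEP KO. Its log2 difference was −2.10 (SE 0.55, adjusted p = 0.0295), and −0.97 (0.0430) without the libraries that stand apart. Rpl12, Rplp2, Rps27a, Rpl41 and Rpl37a followed, at −1.84 to −1.63. Of these, Rplp2 was still called without those libraries (−0.97, adjusted p = 0.0262), while Rpl12 was −0.80 (0.0780), Rps27a −0.77 (0.0725), Rpl41 −0.70 (0.0838) and Rpl37a −0.55 (0.209). Between CMP/GMP and MEP in KO, 26 members were called lower and none higher (5.51% of all genes called, 2.51% higher and 3% lower), led by Rps12 (−2.35, adjusted p = 0.0337), Rps21 (−2.21) and Rplp1 (−2.02). Without the libraries that stand apart none was called by edgeR, with 16 at an unadjusted p under 0.05. Between LT-HSC and CMP/GMP in KO edgeR called none (0.671% of all genes called, 0.354% higher and 0.317% lower), with 4 at an unadjusted p under 0.05 and 1 called by DESeq2. Of all genes, 13.9% had such an unadjusted p and DESeq2 called 5.68%. The KO counts moved with single libraries. For LT-HSC against MEP, leaving out MEP KO 1 gave 58 calls (23.6% of all genes called), MEP KO 3 and 4 gave 8 and 4, LT-HSC KO 1, 3 and 4 gave 6, 4 and 6, and CMP/GMP KO libraries, which share the fit, gave 19 or 20. For CMP/GMP against MEP, leaving out MEP KO 1 gave 52 (26.1% of all genes called), MEP KO 2 gave 15, MEP KO 3 or 4 and each CMP/GMP KO library gave 0, and LT-HSC KO 1, 3 and 4 gave 16, 6 and 12.

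Dnmt3a loss in the sorted populations changed no member past the threshold of edgeR, nor any other gene (0% called in each). In LT-HSC no member had an unadjusted p under 0.05 and DESeq2 called none, with a median log2 difference, KO minus WT, of 0.00. In CMP/GMP 77 of 83 members were positive with a median of 0.21, against 0.01 over all genes. There, 13 members had an unadjusted p under 0.05, all higher in KO, and DESeq2 called 1. Of all genes, 9.06% had such an unadjusted p and DESeq2 called 1.21%. In MEP the median was 0.67, against −0.03 over all genes, 67 of 83 were positive, 38 had an unadjusted p under 0.05, all higher in KO, and DESeq2 called 15. Of all genes, 13.0% had such an unadjusted p and DESeq2 called 4.55%. Whether the effect of Dnmt3a loss differed between the 3 populations was tested directly with an F-test, in which no member was called (0.0186% of all genes called), with 10 at an unadjusted p under 0.05 and none called by DESeq2. Without MEP KO 1 it called 2 of 84 members (2.38%), below the 5.25% of all genes then called.

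The high values of MEP KO came from MEP KO 2, 3 and 4. Rpl38, a small large-subunit protein, had 414, 633 and 665 CPM in MEP WT, 450.2 in MEP KO 1 and 2926, 2838 and 3162 in MEP KO 2, 3 and 4. Its log2 difference was 2.03 (SE 0.60, adjusted p = 0.315), and −0.35 (0.785) without the 3 libraries. Rps21 had 172 to 303 CPM in WT, 220 in KO 1 and 674 to 1283 in the other 3 KO libraries, with a log2 difference of 1.91 (adjusted p = 0.315), and −0.04 (0.984) without the 3 libraries. Not every member was high there: Rpl4 had 3008 to 3753 CPM in WT, 3769 in KO 1 and 1336 to 1853 in KO 2, 3 and 4. The members with a transcript under 600 bases had a median of 1.10 (32 members) and longer ones 0.43 (49 members), and without the 3 libraries these were 0.07 and 0.15. The same 3 libraries had fewer genes detected, and with CMP/GMP markers at 74.4 to 3043 CPM in MEP KO against 78.0 to 541 in WT, and lower megakaryocyte-erythroid markers, the part of RNA quality and cell makeup in these values was not tested. Leaving out MEP KO 1 gave 41 called members, 39 higher and 2 lower, where 24.3% of all genes were called. Leaving out the other 3 leaves 1 KO library, with the medians of 0.07 and 0.15 given above.

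**Figure D2:**
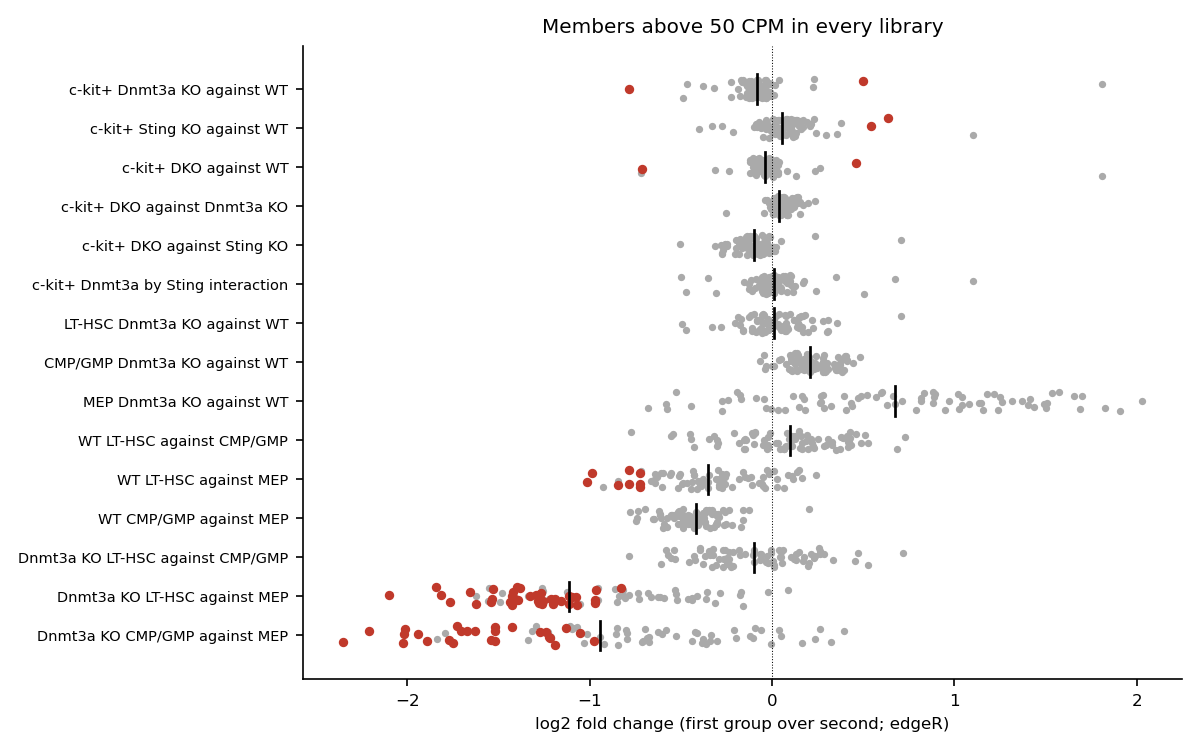
Log2 differences (horizontal axis) of the 81 ribosomal protein genes above 50 CPM in every library, 1 row of points for each of 15 comparisons. Red points passed an adjusted p under 0.05 and black lines are medians of these 81; the c-kit+ rows lie close to 0 with few red points, and the KO rows of LT-HSC or CMP/GMP against MEP lie far to the left.

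In c-kit+ cells most members stayed within a narrow band while 4 passed the test in at least 1 comparison with WT. Of the 81 members above 50 CPM in every library, 74 differed from WT by less than 0.3 on the log2 scale in Dnmt3a KO, 74 in Sting KO and 76 in DKO. Over the 85 members tested the medians were −0.08, 0.06 and −0.03, against 0.00 over all genes in each. In Dnmt3a KO 2 members rose and 1 fell by edgeR (0.568% of all genes called, 0.306% higher and 0.262% lower). In Sting KO 3 rose and none fell (0.774%, of which 0.212% higher and 0.562% lower). In DKO 2 rose and 1 fell (1.26%, of which 0.53% higher and 0.73% lower). The 3 genes of Dnmt3a KO and of DKO were the same, Rpl38, Rpl3 and Rps4l, but the 3 comparisons share the 2 WT libraries.

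Rpl38, known for its role in translating Hox messages in the embryo, was 156 and 147 CPM in WT, 88.3 and 85.6 in Dnmt3a KO, 113 and 118 in Sting KO, and 95.1, 86.7 and 94.3 in DKO. Both WT libraries were above all 7 others. It fell by 0.78 in Dnmt3a KO (SE 0.08, adjusted p = 0.00569) and by 0.71 in DKO (SE 0.07, adjusted p = 0.00303) on the log2 scale. In the sorted populations it did not follow that order, with 253 to 1659 CPM in LT-HSC KO against 242 to 799 in WT, and 437 to 835 in CMP/GMP KO against 377 to 677.

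Rpl3, which lies close to the peptidyl transferase centre, was 985 and 1074 CPM in WT and 1291 to 1662 in the 7 knockout libraries, again without overlap. It rose by a log2 difference of 0.50 (SE 0.09, adjusted p = 0.0476) in Dnmt3a KO, 0.64 (0.0123) in Sting KO and 0.46 (0.0346) in DKO. Rpl13a, a large-subunit protein also known for a role outside the ribosome after interferon-γ, was 513 and 551 CPM in WT, 645 and 587 in Dnmt3a KO, 791 and 770 in Sting KO and 626 to 655 in DKO. It was called in Sting KO alone (0.54, SE 0.07, adjusted p = 0.00972).

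Rps4l, a copy of Rps4x annotated as a pseudogene, was low throughout. It had 2.07 and 2.29 CPM in WT, 10.2 and 9.50 in Dnmt3a KO, 5.27 and 8.98 in Sting KO and 7.58 to 9.52 in DKO. The log2 differences were 2.19 (SE 0.26, adjusted p = 0.00870), 1.69 (0.0225) and 1.99 (0.0104). Its direction was the same in every alternative run for these 3 comparisons. Its parent Rps4x, on the X chromosome, ran from 1200 to 1315 CPM over all 9 libraries. In CMP/GMP Rps4l had 7.38 to 10.4 CPM in WT and 14.1 to 42.7 in KO, without overlap, a log2 difference of 1.50 (unadjusted p = 0.00157, adjusted p = 0.305). The other sorted populations did not show this. Rps4l had 6.49 to 31.1 CPM in LT-HSC WT and 0 to 26.4 in KO, and 1.44 to 12.9 in MEP WT and 0 to 33.5 in KO.

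**Figure D3:**
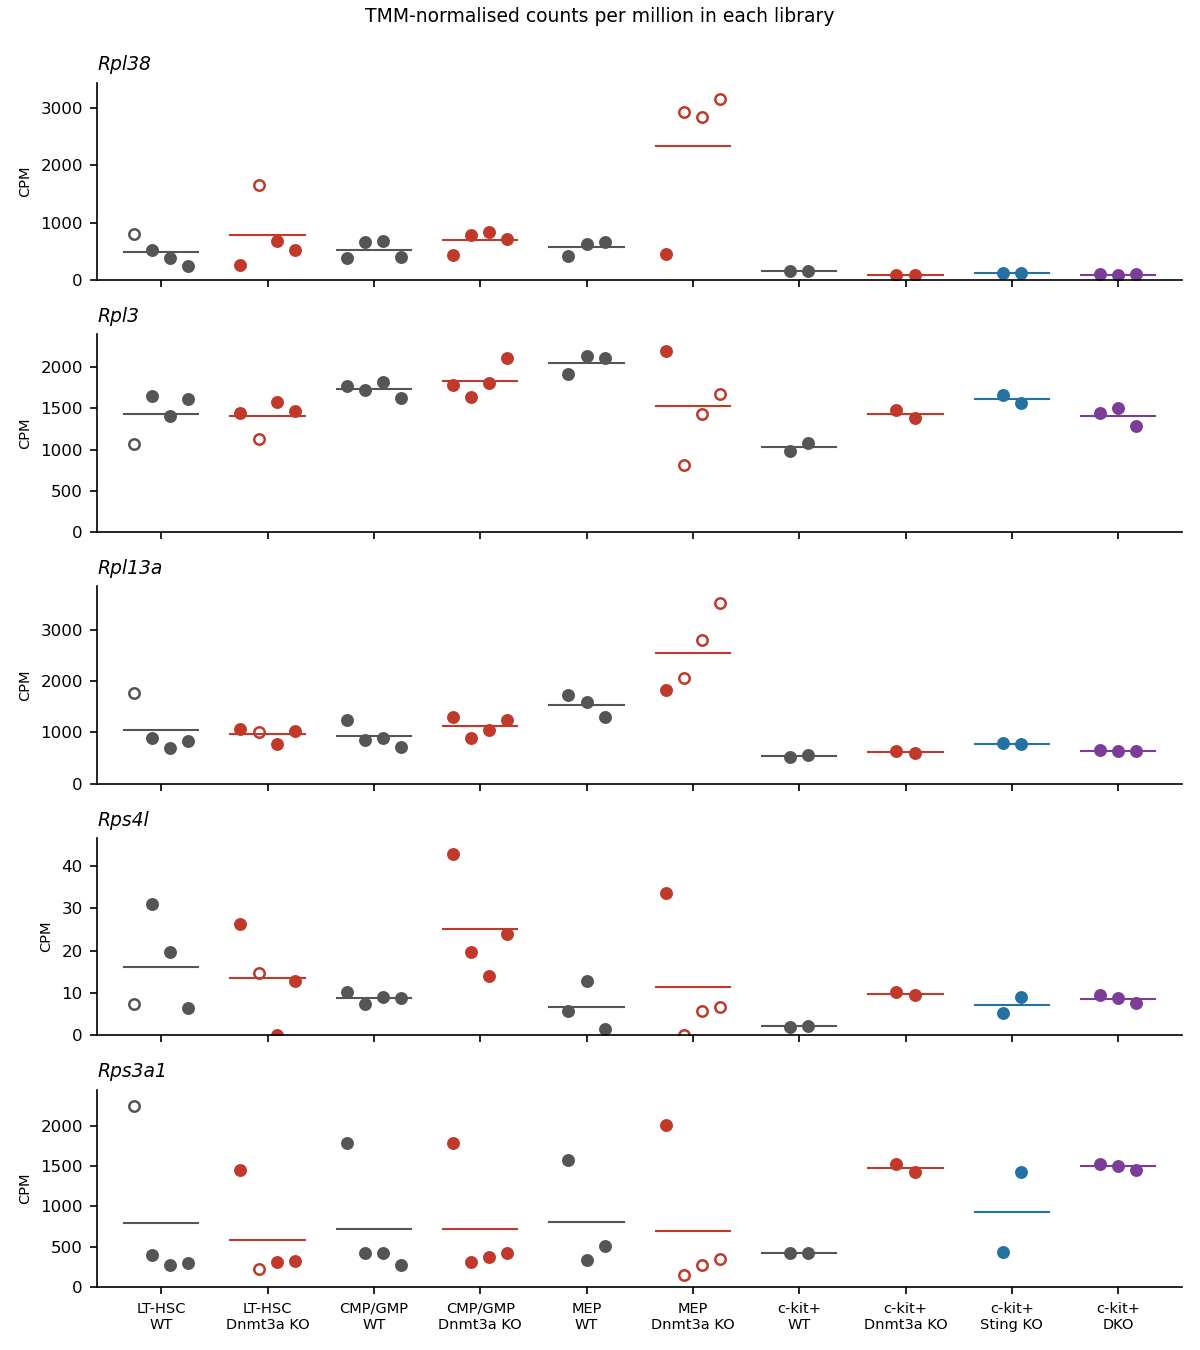
Normalised CPM (vertical axes) of Rpl38, Rpl3, Rpl13a, Rps4l and Rps3a1 in each library, by population and genotype, with lines at group means and open circles for the 5 libraries that stand apart. In c-kit+ cells the 2 WT libraries are the highest for Rpl38 (147 and 156) and the lowest for Rpl3 (985 and 1074) and Rps4l (2.07 and 2.29), and Rps3a1 takes 1 of 2 ranges in each library.

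These calls rest on few libraries. Without c-kit+ WT 1 no member was called against WT in any of the 3 genotypes, and without WT 2 there was 1 in each. In Sting KO 1 was called without Sting KO 2 and 5 without DKO 2, and in DKO 5 were called without DKO 3. In Dnmt3a KO none was called without KO 1 or without KO 2, and Rpl38 then had log2 differences of −0.80 (adjusted p = 0.0676) and −0.79 (0.0627). The fits without a WT, Dnmt3a KO or Sting KO library leave 1 library in a group, which is assumed to vary like the other groups. No share of all genes is given for these fits, so their counts cannot be told apart from a shift over all genes. Both Dnmt3a KO libraries and DKO 1 carried Xist reads and both WT libraries did not. With a term for this no member was called in Dnmt3a KO, nor any other gene (0% of all genes). Between the WT and Dnmt3a KO libraries Xist and genotype split alike and cannot be told apart. Rpl38 in DKO 2 and 3, which like WT lacked Xist reads, was 86.7 and 94.3 CPM. The part of this split in the level of Rpl38 was not tested. The cell makeup moved with genotype too: 8 macrophage markers summed to 1410 to 1487 CPM in WT, 558 to 574 in Dnmt3a KO, 339 to 365 in Sting KO and 365 to 541 in DKO, all 8 being detected in every group, and 7 late neutrophil markers to 6165 to 10481 CPM in WT and 10715 to 31570 in the knockouts. Their part in the differences of the members was not tested.

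Between DKO and the single knockouts no member passed the test of edgeR. For DKO against Dnmt3a KO edgeR and DESeq2 called none of 85 (0.156% of all genes called by edgeR), with 3 at an unadjusted p under 0.05, and the 81 above 50 CPM in every library differed by −0.25 to 0.24. Of all genes, 7.91% had such an unadjusted p and DESeq2 called 0.618%. For DKO against Sting KO edgeR called none (0% of all genes), with 23 at an unadjusted p under 0.05, all lower in DKO, and DESeq2 called 2. Of all genes, 11.6% had such an unadjusted p and DESeq2 called 0.842%. Without Sting KO 2 edgeR called 1. The interaction was the Dnmt3a effect with Sting present minus that with Sting lost. It had none called by edgeR (0.15% of all genes, 0.0749% higher and 0.0749% lower), 5 at an unadjusted p under 0.05 and 4 by DESeq2. Of all genes, 7.56% had such an unadjusted p in the interaction and DESeq2 called 1.24%. Without Sting KO 1 edgeR called 2, and without DKO 2 it called 1.

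A few members took widely separated values that did not follow genotype. These were picked after their values were seen. Rps3a1 (chr3:86137940-86142702, GRCm38), a small-subunit protein gene, was 427, 427 and 430 CPM in c-kit+ WT 1, WT 2 and Sting KO 1, and 1425 to 1531 in the other 6 libraries. In sorted cells the 6 libraries numbered 1, of both genotypes and all 3 populations, had 1456 to 2239 CPM and the other 17 had 151 to 504. Its log2 difference in c-kit+ Dnmt3a KO was 1.81 (SE 0.40, adjusted p = 0.0921). The nearby gene Sh3d19 (chr3:85971109-86130526), which encodes an adaptor protein, had 0.72 to 1.65 CPM in the same 3 c-kit+ libraries and 17.6 to 24.8 in the other 6. Of the 9 genes tested within 1 Mb none was called in any comparison with WT.

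In c-kit+ cells 3 other members were low where a row that shares their sequence was high. They were picked from 23 rows that share sequence with a member and passed 5 CPM in a c-kit+ library. Of these 23, 4 had a Pearson correlation with their member under −0.9, the other being Trim24 with Rps20 (−0.90, 8 shared words). Other rows rose with their member, such as Rpl14-ps1 with Rpl14 (0.89) and Gm9794 with Rpl23 (0.78). Rpl30 shares 249 of its 50-base words with Gm12191, a row for a predicted gene. In c-kit+ cells Gm12191 had 67.6 to 82.5 CPM where Rpl30 had 170 to 212 (Dnmt3a KO 1, Sting KO 1 and all 3 DKO), and 2.93 to 4.28 where Rpl30 had 268 to 321. In sorted cells Gm12191 was at 88.0 to 211 CPM in WT number 3 and KO number 2 of all 3 populations and at 0.62 to 37.4 in the other 17 libraries. Rpl30 was the lowest of its group in the 3 WT number 3 libraries (130, 245 and 196 CPM), CMP/GMP KO 2 (401) and MEP KO 2 (645), but the highest in LT-HSC KO 2 (943). The sum of both rows in c-kit+ cells still ran from 241 to 324 CPM. Rpl29 was 169 to 195 CPM in Dnmt3a KO 2, Sting KO 1 and DKO 1, where Gm8210 had 5.14 to 7.37, and 321 to 369 in the other 6, where Gm8210 was at 0.26 or less. Gm8210 reached 39.1 to 73.9 CPM in KO number 1 of all 3 sorted populations and at most 0.48 in the other 20 libraries. The sum of Rpl29 and Gm8210 in c-kit+ cells stayed apart, at 174 to 203 CPM in the 3 libraries and 321 to 369 in the other 6. Rpl34 was 96.8 CPM beside 77.5 of Rpl34-ps1 in Sting KO 1, and 139 to 171 beside 13.9 to 17.2 in the other 8, so that their sum, 155 to 186 in all 9, spanned a narrower range than either. The part of the assignment of reads between copies was not tested.

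**Figure D4:**
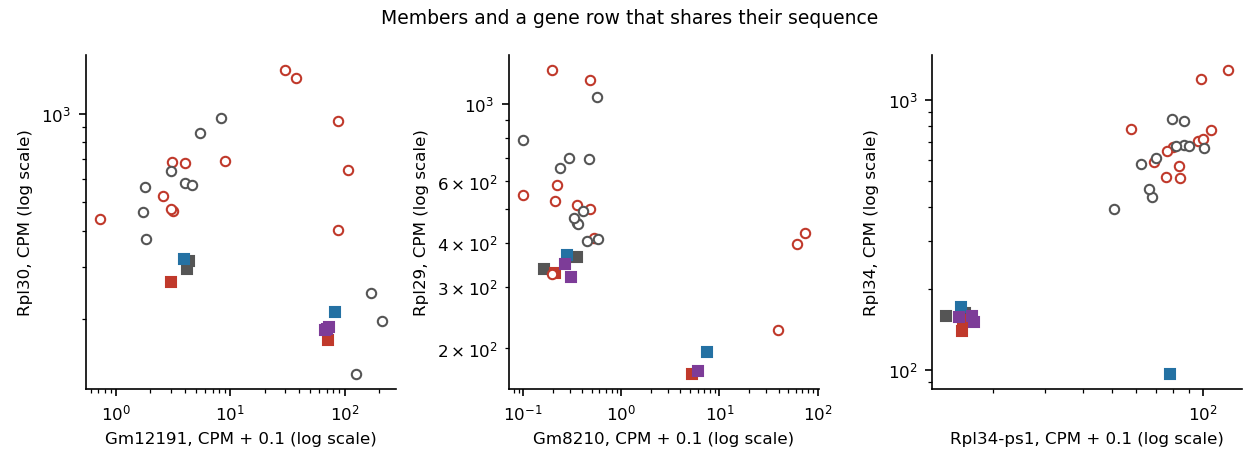
Normalised CPM of Rpl30, Rpl29 and Rpl34 against that of the copy each shares sequence with (Gm12191, Gm8210, Rpl34-ps1), with 0.1 added to the copy, on log axes, 1 point a library. Squares are c-kit+ and circles sorted libraries (grey WT, red Dnmt3a KO, blue Sting KO, purple DKO); Rpl30 has 170 to 212 CPM in the 5 c-kit+ libraries with Gm12191 above 67 and at least 268 in the other 4.

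Genes near the members called in c-kit+ cells were compared as well. Within 1 Mb of Rpl3, on chromosome 15, 2 of 39 tested genes were called in Dnmt3a KO (5.13%, against 0.568% of all genes). One of them was Apobec3 (chr15:79891659-79915906), an antiviral cytidine deaminase, with 68.4 and 71.2 CPM in WT and 157 to 241 in the 7 knockout libraries. The other, D730005E14Rik (chr15:79889532-79893120), overlaps it, so the 2 mark 1 locus. Within 1 Mb of Rps4l it was 1 of 9 in Dnmt3a KO, Far2 (0.88, adjusted p = 0.0320). In DKO it was 2 of 9 (1.26% of all genes called), Far2 and Tmtc1 (−2.14, adjusted p = 0.0346), whose span holds Rps4l. Rpl13a was called in Sting KO alone. Within 1 Mb of it 1 of 83 was called there (0.774% of all genes), Gm31597 (5.36, adjusted p = 0.0236). In Dnmt3a KO it was also 1 of 83, Ftl1 (−0.68, adjusted p = 0.0320). Around Rpl38 none of 33 was called in any of the 3 comparisons with WT.

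Paralogues varied against their parents between populations. The count of Rps27l reads per 100 reads of Rps27, its parent, depends on the length of both and is compared only between groups. It was 20.9 ± 4.71 in LT-HSC WT and 20.9 ± 1.71 in KO, 49.0 ± 9.16 in CMP/GMP WT and 36.0 ± 6.35 in KO (SD, n = 4 each), 41.6 ± 5.50 in MEP WT (SD, n = 3) and 40.1 ± 5.65 in KO (SD, n = 4). LT-HSC libraries, at 17.4 to 27.5 over both genotypes, did not overlap with those of CMP/GMP and MEP, at 29.6 to 57.2. Rps27l, a target of p53 known from the response to DNA damage, had a log2 difference between LT-HSC and MEP of −0.93 in WT (adjusted p = 0.0662) and −1.33 in KO (adjusted p = 0.0210), and Rps27 one of −0.03 in WT (0.970). Without LT-HSC WT 1 that of Rps27l in WT was −1.28 (adjusted p = 0.00409). Of the 50-base words of Rps27, 98.6% are shared with other genes, chiefly the copy Rps27rt, and of those of Rps27l 22.4%.

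Rpl36al and Rpl22l1 also stood at different ratios in different populations. Rpl36al per 100 reads of Rpl36a was 59.5 ± 8.19 in LT-HSC WT and 112 ± 9.70 in CMP/GMP WT (SD, n = 4 each), without overlap, 98.5 ± 20.1 in MEP WT (SD, n = 3) and 54.1 to 66.1 over the 9 c-kit+ libraries. Rpl22l1 per 100 reads of Rpl22, the parent that is lost in some T cell leukaemias, was 102 to 122 as a mean in the sorted WT groups and 31.0 to 39.8 over all c-kit+ libraries. Between c-kit+ and sorted cells the depth and the cell mix differ as well, and no test was made. Within c-kit+ cells Rpl22l1 was 83.6 and 92.5 CPM in Dnmt3a KO and 109 and 113 in WT, a log2 difference of −0.32 (adjusted p = 0.111). Rpl7l1, which acts in ribosome assembly, was 14.4 ± 2.78 per 100 reads of Rpl7 in MEP WT (SD, n = 3) and 6.96 ± 4.14 in MEP KO (SD, n = 4), where the library that did not stand apart had 13.1.

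**Figure D5:**
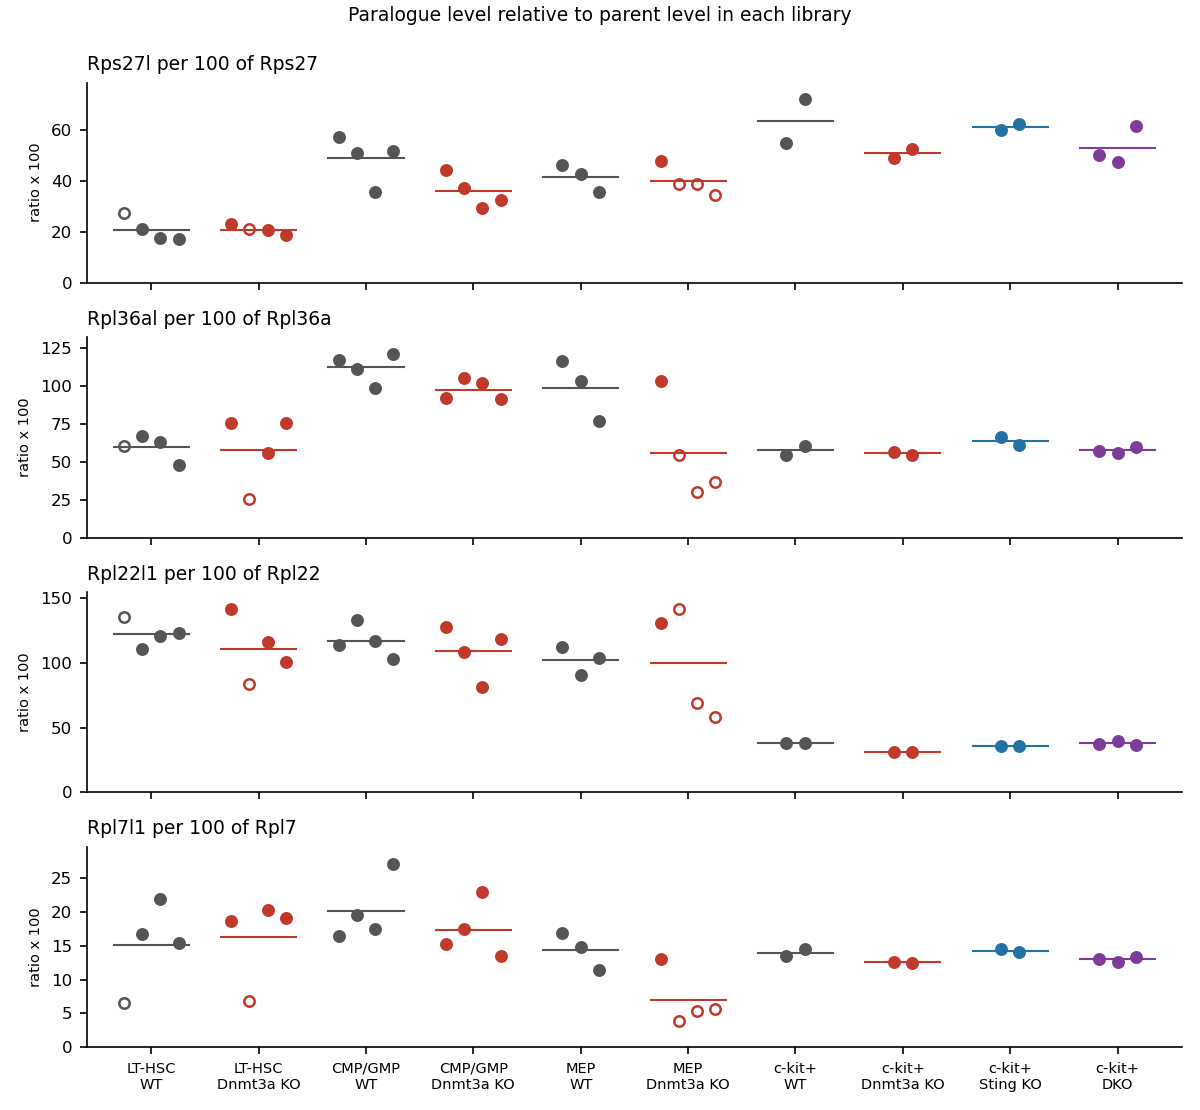
Reads of a paralogue per 100 reads of its parent (vertical axes) in each library, for Rps27l, Rpl36al, Rpl22l1 and Rpl7l1; lines are group means and open circles the 5 libraries that stand apart. For Rps27l the LT-HSC libraries lie at 17.4 to 27.5 and those of CMP/GMP and MEP at 29.6 to 57.2; for Rpl22l1 the c-kit+ libraries lie at 31.0 to 39.8.

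Genes that build or use ribosomes were compared from 6 lists, chosen with earlier results known, and in none of these was a gene called by edgeR in a comparison of a knockout with WT. Of 59 ribosome biogenesis genes tested, 15 were lower and none higher in LT-HSC than in MEP in WT (median −0.81), and 14 were lower and 2 higher than in CMP/GMP (median −0.66). Over all genes 6.02% were called lower against MEP and 4.51% against CMP/GMP, with medians of 0.17 and 0.09. Without LT-HSC WT 1 the list had 26 lower than in MEP and 24 lower with 2 higher than in CMP/GMP. Of all genes 19.1% and 14.6% were then called in either direction. Mrto4, which prepares the site of the stalk on the large subunit, was 42.2 to 85.4 CPM in LT-HSC WT, 134 to 169 in CMP/GMP and 202 to 283 in MEP, with log2 differences of −1.26 (adjusted p = 0.00959) and −1.88 (0.00104). Bysl (−1.54, adjusted p = 0.0144) and Rrp9 (−1.35, 0.0267), both of small-subunit assembly, were lower than in MEP. Nop2, an RNA methyltransferase of the large subunit, was lower than in CMP/GMP (−1.23, 0.0299). Imp3, of the small-subunit processome, was higher in LT-HSC than in CMP/GMP (1.70, 0.00865) and lower in CMP/GMP than in MEP (−1.80, 0.0122). None of 15 RNA polymerase I genes was called by edgeR with all libraries, and without LT-HSC WT 1 there were 1 lower in LT-HSC than in MEP and 3 lower than in CMP/GMP.

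Of 36 initiation factors, 10 were lower and 1 higher in LT-HSC than in MEP in WT (median −0.51), and 7 lower and 1 higher than in CMP/GMP. Over all genes 6.02% were called lower against MEP and 4.51% against CMP/GMP. The counts of initiation factors were 13 and 1, and 11 and 2, without LT-HSC WT 1. Eif5a, which helps the ribosome through difficult stretches, was −1.54 (adjusted p = 0.0158) and −1.31 (0.0336), Eif2b1, a subunit of the exchange factor of eIF2, was −1.78 (0.0223) and −1.64 (0.0330), and Eif5 was 1.35 (0.0113) against CMP/GMP. Of 8 elongation genes 3 were lower than in MEP, Eef1e1 (−1.11, adjusted p = 0.0143), Eef1g (−0.83) and Eef2 (−0.64), and of 20 other genes with terminal oligopyrimidine tracts also 3. They were 5 of 8 and 9 of 20 without LT-HSC WT 1, where 19.1% of all genes were called in either direction. Among 18 TOR and Myc genes tested, Mycn was higher in LT-HSC than in MEP (3.14, adjusted p = 0.00452) and in CMP/GMP (2.84, 0.00593), and Eif4ebp1, an inhibitor of cap-dependent initiation under TOR, was lower than in MEP (−1.38, 0.0119). Mycn was 55.3 to 449 CPM in LT-HSC WT, the lowest being LT-HSC WT 1, and 19.6 to 46.4 in the CMP/GMP and MEP WT libraries. Without LT-HSC WT 1 its log2 differences were 3.47 (adjusted p = 0.000243) against MEP and 3.17 (0.000386) against CMP/GMP. The other genes named from these lists for WT kept their direction and their call without that library.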

How the data were processed

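Raw read counts per gene symbol, deposited by the authors, were analysed. The submitters' processing notes name Trim Galore 0.6.7, HISAT2, featureCounts 2.0.1, DESeq2 1.34.0 and the mm10 build. The sources used here do not give the annotation, the strand setting or how multiply mapped reads were treated. Of 40 columns, 32 matched a single library. The other 8 repeat names of short-term stem cell libraries and were not used, and a table of transposable element counts was not used. Per the labels, amplification followed a changed form of SMART-Seq2.

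Counts were tested with edgeR 4.0.16 (TMM, filterByExpr with minimum count 10 and minimum total 15, quasi-likelihood test, Benjamini-Hochberg over all genes tested, threshold 0.05) in R 4.3.3. The 9 c-kit+ libraries shared a fit, each sorted population was fitted alone for KO against WT, and the 3 populations of a genotype shared a fit when compared. Levels are CPM after TMM over 32 libraries. SE is the log2 difference over the root of F. Tested on simulated counts, 116 of 200 genes (58%) changed 2-fold were recovered in c-kit+ Dnmt3a KO against WT (15565 genes), 36 of 200 (18%) changed 4-fold in MEP KO against WT (11859 genes) and 76 of 200 (38%) changed 4-fold in WT LT-HSC against MEP (14171 genes).

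Values of some single genes are not reported here. Members and lists were chosen with earlier results of these data known. Named genes are the paralogues with their parents, the stalk and 5S proteins, up to 6 called members per direction and comparison, the 3 highest and lowest per kb, and up to 3 called genes per list; Rps4x, Rpl30, Rpl29, Rpl34 and others said to be so were added after values were seen. Positions and 50-base words come from the GENCODE annotation of GRCm38, windows from RefSeq. Alternatives were DESeq2 1.42.0, RLE, factors from non-members, no filter, a replicate block, other fits and leaving out each library. A term for Xist reads, the libraries that stand apart, summed pairs and a crossed block were added after seeing the data.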

Additional observations from a re-analysis of the deposited data

Results flagged for a closer look

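In groups of 4 libraries, 23 of 125 sets of values (24 named genes and the summed share in 5 groups) had a highest or lowest library whose gap to the nearest of the others exceeded the 95% critical value of Dixon's test, as chance does in about 1 of 20 groups. These sets share libraries and so are not independent. LT-HSC KO 2, which stands apart, held 11.2% of its gene reads on the members against 7.97% to 8.44% in the other 3. In it Rpl11 was low, at 511 CPM against 770 to 792, and 6 members were high: Rpl22 at 736 CPM (others 206 to 255), Rpl22l1 at 615 (255 to 296), Rpl30 at 943 (440 to 476), Rpl39 at 1049 (227 to 325), Rplp1 at 3259 (1076 to 1248) and Rplp2 at 1861 (473 to 522). LT-HSC WT 1, which also stands apart, was high for 7 members other than Rps3a1: Rpl13a at 1770 CPM (others 703 to 883), Rpl22 at 500.1 (219 to 255), Rpl22l1 at 676 (265 to 282), Rpl39 at 941 (235 to 303), Rplp1 at 3279 (1073 to 1406), Rplp2 at 1722 (419 to 639) and Rps4x at 2549 (1269 to 1354).

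MEP KO 1, the library of its group that does not stand apart, was low for Rpl38, at 450.2 CPM against 2838 to 3162, and for Rpl7, at 1355 against 2846 to 2957. CMP/GMP WT 4 was low for Rpl22, at 166 CPM against 243 to 251. Rps3a1 was high in the library numbered 1 of each group of 4: 2239 CPM in LT-HSC WT (others 272 to 394), 1456 in LT-HSC KO (230.3 to 327), 1783 in CMP/GMP WT (273 to 426), 1791 in CMP/GMP KO (318 to 418) and 2005 in MEP KO (151 to 347).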

How the results depend on the processing

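Counts of members called, given as the alternative's value beside the reported one. DESeq2 in place of edgeR gave 5 (3) in c-kit+ Dnmt3a KO, 6 (3) in Sting KO and 6 (3) in DKO against WT, 2 (0) in DKO against Sting KO, 4 (0) for the interaction, 1 (0) in CMP/GMP KO and 15 (0) in MEP KO against WT, 1 (0) and 6 (0) in WT for LT-HSC against CMP/GMP and CMP/GMP against MEP, and 1 (0) and 48 (26) for the same pairs in KO. Over all genes DESeq2 called 4.04% in c-kit+ Dnmt3a KO, 2.88% in Sting KO and 5.78% in DKO against WT, and 18.1% for KO CMP/GMP against MEP. Without a filter there were 7, 7 and 5 in the 3 c-kit+ knockouts against WT, 3 in DKO against Sting KO and 4 for the interaction. Fitting only the groups compared gave 5 in Dnmt3a KO. A term for Xist gave 0 there (0% of all genes) and 16 for CMP/GMP against MEP in KO (4.14% of all genes). Without the libraries that stand apart there were 3, 39 and 7 in WT for LT-HSC against CMP/GMP, LT-HSC against MEP and CMP/GMP against MEP. Of all genes 14.6%, 19.1% and 7.55% were then called. In KO this leaves 1 MEP library. The ratio of the summed share in MEP KO to WT was then 1.07, and Eif3f in KO CMP/GMP against MEP turned from −3.14 to 0.33. One fit over the sorted libraries gave 2 (8) for WT LT-HSC against MEP and 44 for KO CMP/GMP against MEP, and summing near-identical pairs gave 8 (38) and 0 (26) in KO against MEP. Where no share of all genes is given beside a count, here or for libraries left out, it cannot be told apart from a shift over all genes. The cause of these shifts was not tested.

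The replicate block gave 5 in c-kit+ DKO against WT and 17 in KO CMP/GMP against MEP and kept the other counts within 1.5 times. Same-numbered libraries did not correlate above 0.1 in every pair of any 2 groups of 3 or more, though in LT-HSC and CMP/GMP WT all 4 correlated best with their own number. Rps3a1, Gm8210 and Gm12191 did follow the numbers across the sorted populations, as given above. The main comparisons between populations took no account of the numbers. With the numbers of c-kit+ Dnmt3a KO crossed (r of −0.17 as numbered), 3 members and 229 genes were called.

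Leaving out each library gave 0 to 3 in c-kit+ Dnmt3a KO, 0 to 5 in Sting KO and 0 to 5 in DKO against WT, 0 to 0 in DKO against Dnmt3a KO, 0 to 1 in DKO against Sting KO, 0 to 2 for the interaction, 0 to 41 in MEP KO against WT, 0 to 3, 1 to 39 and 0 to 7 in WT for the pairs in the order above, 4 to 58 and 0 to 52 in KO against MEP from LT-HSC and CMP/GMP, and 0 to 2 in the F-test. Of the values of single genes, 1156 kept direction and call, 441 lost the call, 2 gained it and 1 reversed. Depth was lowest in MEP KO 2, at 3.44 M reads.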
